A study of Mus musculus with 2 samples.

Results

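Accessible chromatin was described around 9 genes of the bone morphogenetic protein (BMP) pathway out of 21644 protein-coding genes of mouse: the ligands Bmp2, Bmp4, Bmp5 and Bmp7, the antagonists Nog, Grem1 and Chrd, and the receptors Bmpr1a and Bmpr1b. BMPs are secreted factors that bind pairs of type I and type II receptor kinases, which phosphorylate Smad proteins that enter the nucleus and act on target genes such as those of the Id and Msx families. Noggin, gremlin and chordin bind the ligands outside the cell and keep them from their receptors. In the embryonic face these signals pass between the surface epithelium and the mesenchyme beneath it and take part in the outgrowth and fusion of the facial prominences and in the shaping of cartilage and bone.

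The assay was DNase-seq, in which sites that the nuclease DNase I can cut in nuclei are read out by sequencing. All material was 1 group: facial prominences (the swellings that build the face) of B6NCrl mouse embryos at day 11.5, with embryos of both sexes pooled, as 2 libraries labelled biological replicates 1 and 2. No allele or treatment was named, and a whole tissue holds several cell types, so that a site open in few cells and a site weakly open in many cannot be told apart. With 1 group there was no condition to compare, and what follows describes the libraries and gives no p-value.

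Each library came with peaks, which are 150 bp wide sites, and hotspots, which are wider enriched regions. A peak or hotspot belonged to the gene whose protein-coding transcription start its midpoint was nearest to, in GENCODE release M21 on build mm10. By this rule the 9 genes had 484 of 209299 peaks of replicate 1 and 363 of 219061 of replicate 2, and 421 of 178464 and 321 of 188815 hotspots. A peak within 1 kb of a start was called a promoter peak and any other a distal peak. A peak counted as shared when it overlapped one from the other replicate by 75 bp or more, and shared peaks are given by their position in replicate 1. The nearest gene need not be the gene that a site acts on.

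The value deposited with each peak, called its strength here, is the authors' own. Its scale relative to depth is unknown, so it was ranked within a library and not compared as a level between libraries. Over all peaks of replicate 1 it had a median of 16 and quartiles of 7 and 31, and over those of replicate 2 a median of 42 and quartiles of 29 and 66. Of all peaks, 41.1% in replicate 1 and 38.5% in replicate 2 had a match in the other library. Marker genes were set beside the tissue label. A shared promoter peak was found at 8 of 9 facial mesenchyme genes, against 61.1% of all genes. It was also found at 3 of 6 ectoderm, 3 of 3 neuron, 1 of 2 muscle and 1 of 3 endothelium genes. None of the 3 erythroid and 3 macrophage genes had one. With all neuron genes among those that did, these promoter counts do not set facial mesenchyme apart. The median number of shared distal peaks per gene was 17 for facial mesenchyme, 10 for endothelium and 7 for neuron genes. It was 2.5 or less for the ectoderm, muscle, macrophage and erythroid genes. Such distal counts grow with the length of sequence around a gene, as set out below.

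The sequences below are the strongest shared distal peak of each gene by mean rank over both libraries, since these are the sites on which the description of each gene turns. Chrd had no shared distal peak and is shown by its strongest shared promoter peak. The strongest promoter peak of Bmpr1a was added after its values were seen, because it ranked highest of all promoter peaks of the 9 genes. Sequence is from GRCm38, the same build as mm10, on the plus strand from 5′ to 3′. Capitals mark matches to 1 of 8 short motifs, here the core letters of the CTCF motif, the E-box CAGATG and the GC-rich Smad element GGCGCC, each searched on both strands.
Bmp2 distal peak, chr2:133550256-133550405: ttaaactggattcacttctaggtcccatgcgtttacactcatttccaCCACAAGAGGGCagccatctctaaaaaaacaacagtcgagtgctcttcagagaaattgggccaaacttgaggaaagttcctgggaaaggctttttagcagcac
Bmp4 distal peak, chr14:46387356-46387505: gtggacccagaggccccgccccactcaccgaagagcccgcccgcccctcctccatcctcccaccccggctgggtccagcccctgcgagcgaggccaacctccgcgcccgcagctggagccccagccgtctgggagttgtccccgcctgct
Bmp5 distal peak, chr9:75762616-75762765: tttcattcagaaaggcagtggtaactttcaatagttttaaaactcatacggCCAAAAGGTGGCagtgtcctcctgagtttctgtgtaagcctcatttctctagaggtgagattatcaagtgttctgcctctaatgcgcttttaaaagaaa
Bmp7 distal peak, chr2:172758616-172758765: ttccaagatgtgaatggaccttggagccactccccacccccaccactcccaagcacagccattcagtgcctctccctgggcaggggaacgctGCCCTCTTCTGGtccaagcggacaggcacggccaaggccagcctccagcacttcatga
Nog distal peak, chr11:89298396-89298545: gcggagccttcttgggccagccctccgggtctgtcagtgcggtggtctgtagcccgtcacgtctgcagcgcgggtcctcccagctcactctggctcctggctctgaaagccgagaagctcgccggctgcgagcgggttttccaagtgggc
Grem1 distal peak, chr2:113648296-113648445: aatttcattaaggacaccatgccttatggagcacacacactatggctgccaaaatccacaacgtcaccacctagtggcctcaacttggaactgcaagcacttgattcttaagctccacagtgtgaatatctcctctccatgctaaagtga
Bmpr1a distal peak, chr14:34495636-34495785: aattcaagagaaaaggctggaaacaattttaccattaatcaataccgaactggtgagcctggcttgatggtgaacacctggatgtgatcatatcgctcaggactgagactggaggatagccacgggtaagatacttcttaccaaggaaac
Bmpr1b distal peak, chr3:142064016-142064165: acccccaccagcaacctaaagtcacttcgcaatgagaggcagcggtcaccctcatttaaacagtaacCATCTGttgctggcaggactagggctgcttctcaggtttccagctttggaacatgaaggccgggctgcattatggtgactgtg
Chrd promoter peak, chr16:20733016-20733165: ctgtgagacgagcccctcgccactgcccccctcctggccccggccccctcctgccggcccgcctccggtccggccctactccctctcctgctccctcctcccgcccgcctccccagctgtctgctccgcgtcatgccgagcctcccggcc
Bmpr1a promoter peak, chr14:34502736-34502885: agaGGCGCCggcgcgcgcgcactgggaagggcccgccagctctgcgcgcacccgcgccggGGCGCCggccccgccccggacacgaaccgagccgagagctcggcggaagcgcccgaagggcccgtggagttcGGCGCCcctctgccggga

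Of these 8 distal peaks, those of Bmp2, Bmp5 and Bmp7 held the CTCF letters and that of Bmpr1b held the E-box. CTCF is a DNA-binding protein known for organising chromatin loops, and the E-box CAGATG is of the kind bound by Twist and other basic helix-loop-helix factors. The distal peaks of Bmp4, Nog, Grem1 and Bmpr1a and the promoter peak of Chrd held none of the 8 motifs. The promoter peak of Bmpr1a held GGCGCC at 3 places. A match is a run of letters and shows no binding, and an absent match says only that those letters are not in the 150 bases.

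Promoters of 8 of the 9 genes were accessible at a site shared between the libraries, and Bmp4 was the exception. The share over all genes was 61.1%. When the peaks had to overlap by 90% of their width, 5 of the 9 had a shared promoter peak, and Bmp7, Chrd and Bmpr1a had none either. With a promoter window of 500 bp, 7 of the 9 had one, and Grem1 had none besides Bmp4. The share over all genes was not computed at either setting, so the 61.1% cannot be set beside these counts. Within a single library all 9 genes had a promoter peak, against 65.0% of all genes in replicate 1 and 69.0% in replicate 2. A hotspot lay over a start of all 9 genes in both libraries, against 61.5% of all genes in replicate 1 and 65.6% in replicate 2.

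The promoter peaks of the ligands and antagonists were weak as promoters go. The strongest promoter peak of a gene had a median strength of 82 (quartiles 54 and 97) over all genes with such a peak in replicate 1, and of 119 (quartiles 89 and 131) in replicate 2. In each library 8 of the 9 genes were below that median, and the exception in both was Bmpr1a.

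**Figure D1:**
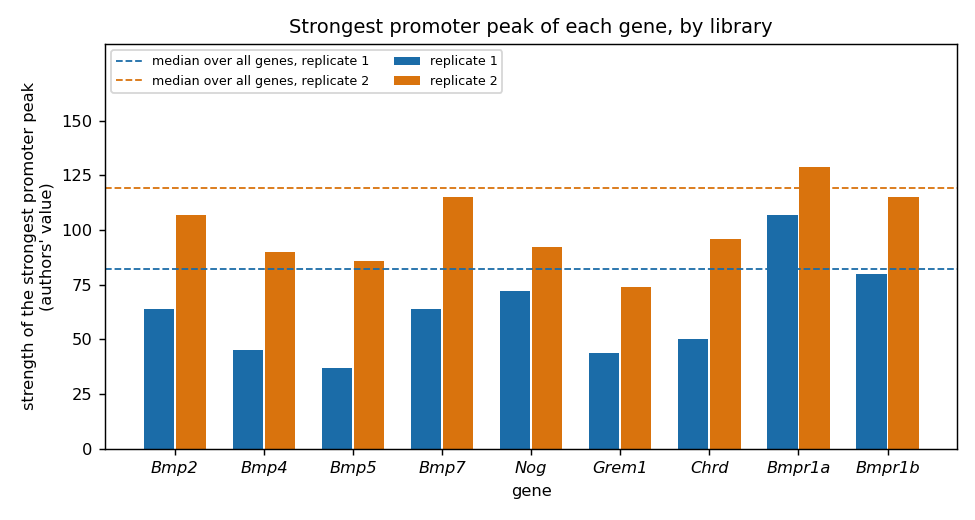
Strength of the strongest promoter peak (y axis, the authors' value) of each gene (x axis) in replicate 1 (blue bars) and replicate 2 (orange bars), with the median over all genes with a promoter peak as a dashed line per library. Of the 9 genes, Bmpr1a alone is above the line in both libraries, at 107 and 129.

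Among the ligands, the strongest promoter peak of Bmp2 had a strength of 64 in replicate 1 and 107 in replicate 2, at percentiles 32.1 and 36.7 among genes with a promoter peak. Bmp2, which acts in heart, bone and facial development, had 3 shared promoter peaks, centred 92, 552 and 852 bp downstream of its start, all in exons. Bmp7, a ligand that takes part in eye, kidney and skeletal development, had strengths of 64 and 115, at percentiles 32.1 and 44.7. Bmp5, known from the mouse short ear mutation, was the lowest of the 9 in replicate 1 with 37, at percentile 13.0, and had 86 in replicate 2, at percentile 23.5. Its 1 shared promoter peak lay 73 bp upstream of the start, at the same position in both libraries.

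Bmp4, a ligand of the facial epithelium and mesenchyme, had promoter peaks in both libraries that did not overlap by a single base. In replicate 1 they were centred 59 and 659 bp downstream of the nearest start, with strengths of 45 and 26. In replicate 2 they were centred 2 bp upstream and 819 bp downstream, with strengths of 90 and 35. The stronger peaks, chr14:46390416-46390565 and chr14:46390596-46390745, stood next to each other at the start. The hotspot over the start was 888 bp wide in replicate 1 and 658 bp in replicate 2, so that the start region was called in both libraries while its peaks were placed differently. 

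The antagonists had strongest promoter peaks of 72 and 92 for Nog, 50 and 96 for Chrd, and 44 and 74 for Grem1, in replicate 1 and 2. Nog, which encodes noggin, stood at percentiles 39.1 and 26.6, and its 3 shared promoter peaks lay 339 bp upstream and 41 and 641 bp downstream of its single start. Grem1, which encodes gremlin, stood at percentiles 17.7 and 17.8, and its 2 shared promoter peaks lay 655 and 975 bp downstream, inside its intron. The Grem1 peak at 975 bp was just inside the 1 kb limit and its peak at 1.53 kb, with strengths of 20 and 51, was the nearest shared peak outside it. Chrd, which encodes chordin, stood at percentiles 21.8 and 28.8, and its 2 shared promoter peaks lay 36 and 316 bp upstream in an intron of the neighbouring gene Thpo.

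Of the receptors, Bmpr1a had the highest promoter strengths of the 9 genes, with 107 in replicate 1 at percentile 91.1 and 129 in replicate 2 at percentile 68.9. Bmpr1a encodes a type I receptor used widely in the embryo. Bmpr1b, a type I receptor known for its part in digit cartilage, had 80 and 115, at percentiles 47.7 and 44.7. Bmpr1b has 4 annotated starts, and its shared promoter peaks were at the most upstream pair of starts. At its start at position 141931523 of chromosome 3 only replicate 2 had a peak, with strength 79, and a hotspot.

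The hotspots over the starts separated the libraries more than the peaks did. Hotspots carry the authors' −log10 q, which runs up to a ceiling of 100, reached by 29.4% of all hotspots in replicate 1 and 35.2% in replicate 2. In replicate 2 all 9 genes had a start inside a hotspot at the ceiling, against 61.7% of all genes. In replicate 1 only Bmp2, Bmp7, Nog, Bmpr1a and Bmpr1b did, which is 5 of 9, against 54.5% of all genes. The replicate 1 hotspots over the starts of Bmp4, Chrd, Bmp5 and Grem1 had −log10 q values of 3.58, 5.7, 6 and 6. These 4 genes also had promoter strengths of 50 or less in replicate 1, below those of the other 5.

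Promoter peaks of the 9 genes were GC-rich, with a median GC content of 68.7% over 17 shared promoter peaks against 64.7% over all 22998. GGCGCC, a GC-rich element known from BMP-responsive genes, was in 7 of the 17 peaks (41.2%), in Bmp2, Nog, Grem1, Bmpr1a and Bmpr1b, and in 14.6% of all shared promoter peaks. These 17 peaks come from 8 genes and are not independent, and the part of GC content in the count was not tested. GCCNNNGGC, the AP-2 motif, was in 2 of the 17 (11.8%), both of Nog, against 16.6%. The homeodomain letters TAATTA, the E-box, TGANTCA of AP-1, ACATTCC of TEAD, the CTCF letters and the Smad palindrome GTCTAGAC were in none of the 17. All of these were rare in promoter peaks at large, with shares between 0.117% for GTCTAGAC and 5.92% for the E-box.

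Away from promoters, shared sites were unevenly spread: Bmpr1b had 28, Bmp2 had 27 and Bmp7 had 26, while the other 6 genes had between 0 and 8. These counts and their order depend on the assignment and on weak peaks. With the nearest start of any annotated gene, protein-coding or not, Bmpr1b had 16, Bmp7 8 and Bmp2 3. Among the 50000 strongest peaks of each library Bmp7 had 11, Bmpr1b 6, Bmp4 5, Nog 4 and Bmp2 3. In all there were 108 shared distal peaks, at 8 of the 9 genes, against 62.8% of all genes with at least 1. The median was 8 per gene for the 9 genes and 1 over all genes. A gene with more sequence around it collects more peaks, so each count was set beside the number that results when all 62952 shared distal peaks are dealt out in proportion to the length of sequence nearest to each gene. By that measure 58.4 were predicted for the 9 genes, and 6 of the 9 had more than predicted, against 44.8% of all genes.

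**Figure D2:**
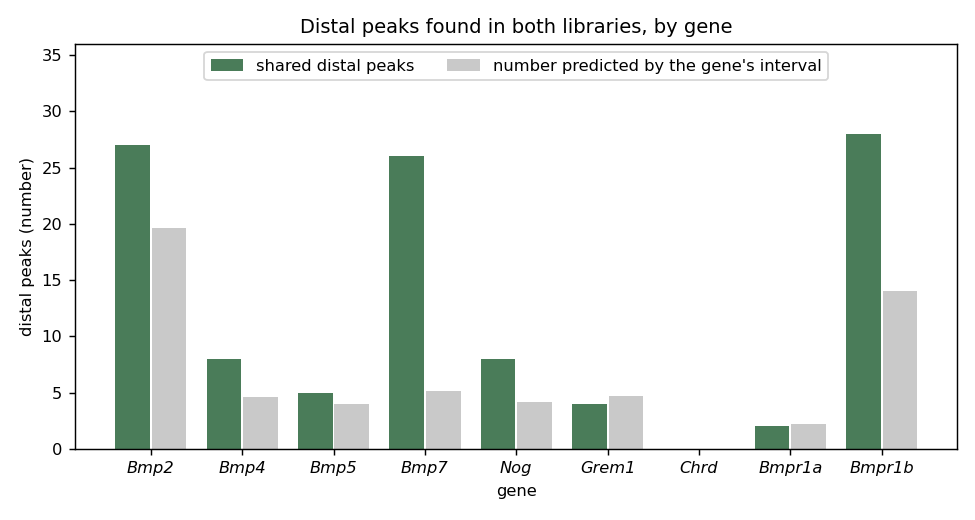
Number of shared distal peaks (green bars) of each gene (x axis) beside the number predicted from the length of sequence nearest to it (grey bars). Bmp7 has 26 against 5.18 predicted, while Grem1 and Bmpr1a are slightly under their predictions.

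Bmp7 stood highest against its prediction, with 26 shared distal peaks where 5.18 were predicted, a ratio of 5.02 that placed it at percentile 92.6 of all genes. Ratios of the others ran from 1.99 for Bmpr1b, 1.92 for Nog, 1.74 for Bmp4, 1.38 for Bmp2 and 1.25 for Bmp5 to 0.904 for Bmpr1a and 0.854 for Grem1. The median ratio was 1.38 over the 9 genes and 0.802 over all genes. The count of Chrd says little, since the Thpo starts on either side leave it only 0.2 kb of distal sequence by this rule. Within 250 kb of Chrd there were 22 shared distal peaks, all nearest to other genes and 11 of them nearest to Thpo.

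**Figure D3:**
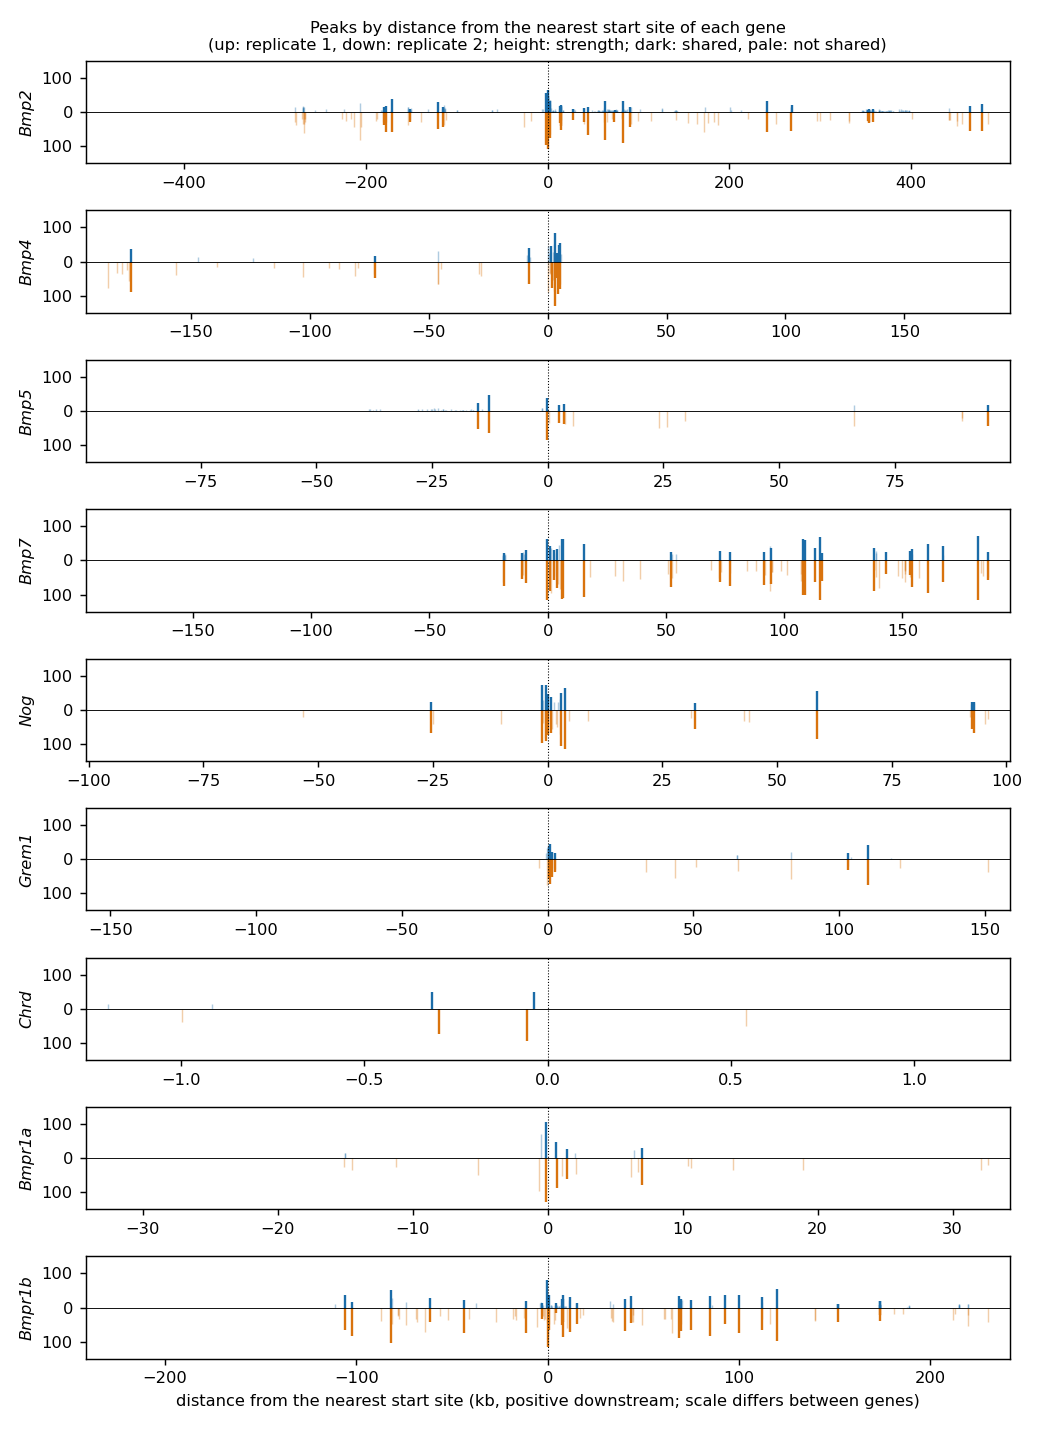
Every peak of each gene (1 panel each) by distance from its nearest start in kb, positive downstream, with replicate 1 drawn upward in blue and replicate 2 downward in orange and the height giving the strength. Dark lines are shared peaks and pale lines are not, so the run of shared sites downstream of Bmp7, the cluster over Bmp4 and the thin, pale replicate 1 peaks at Bmp2 and Bmp5 can be seen.

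The 26 shared distal peaks of Bmp7 lay from 18.4 kb upstream to 186 kb downstream of its start, 23 of them downstream. Of these, 6 were in introns of Bmp7 and 20 outside protein-coding genes, all but 3 of these on the side of Tfap2c, whose start lies 389 kb away. The 3 strongest were at 182 kb (chr2:172758616-172758765), with strengths of 71 and 117, at 115 kb (chr2:172825276-172825425), with 68 and 116, and at 6.01 kb in an intron (chr2:172934236-172934385), with 62 and 112. All 3 were at percentile 92.6 or higher of the shared distal peaks of all genes in each library, so that the far sites were as strong as the intronic one. Within 250 kb of Bmp7 another 24 shared distal peaks were nearest to other genes, 8 of them to Tfap2c.

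The 8 shared distal peaks of Bmp4 were close to the gene: 5 were inside it and 6 within 10 kb. The strongest was in an intron 3.12 kb downstream of the start (chr14:46387356-46387505), with strengths of 85 and 129. It stood at percentiles 98.8 and 99.3 of all shared distal peaks and was the strongest distal peak of the 9 genes in both libraries. It was also stronger than the promoter peaks of Bmp4 itself, which reached 45 and 90. The next were at 4.64 kb in an exon, with strengths of 49 and 95, and at 5.08 kb in an intron, with 53 and 82. In replicate 2 a single hotspot of 2901 bp covered this stretch, wider than 99.8% of the hotspots of that library. Farther away, a peak 175 kb upstream (chr14:46565136-46565285) had 38 and 90. The region around Bmp4 is shared with other starts, and of 19 shared distal peaks within 250 kb, 11 were nearest to other genes, 7 of them to Gm15217.

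Bmp2 lies far from other protein-coding starts, the nearest being 606 kb away at Fermt1 on one side and 1000 kb away at Hao1 on the other, with starts of annotated genes that are not protein-coding in between. Its 27 shared distal peaks reached from 180 kb upstream to 478 kb downstream, 26 of them outside protein-coding genes and 14 beyond 100 kb. The peak 115 kb upstream lay inside the long non-coding RNA gene A430048G15Rik. When the starts of all annotated genes were used, 3 of the 27 were still nearest to Bmp2. The strongest lay 1.83 kb upstream of the start (chr2:133550256-133550405), with strengths of 57 and 96. The next were at 83.5 kb (chr2:133635596-133635745), with 33 and 90, and at 62.7 kb (chr2:133614756-133614905), with 31 and 83. The 27 shared distal peaks of Bmp2, near and far, had a median strength of 17 in replicate 1 and 45 in replicate 2. Over the shared distal peaks of all genes the medians were higher, at 28 and 63.

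Bmp5 had 5 shared distal peaks, of which the strongest was 12.7 kb upstream (chr9:75762616-75762765), with strengths of 46 and 66. A second was 15 kb upstream, with 24 and 53, and the third by rank was 95.1 kb downstream in an intron of Bmp5, with 18 and 45. None of the 5 was among the 50000 strongest peaks of both libraries.

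Nog had 8 shared distal peaks, all outside protein-coding genes, and the strongest were close to the gene on both sides. The peak at 3.86 kb (chr11:89298396-89298545) had strengths of 65 and 114, the peak 1.3 kb upstream, inside the long non-coding RNA gene Gm2018, had 72 and 97, and the peak at 3 kb had 50 and 107. The best promoter peak of Nog had 72 in replicate 1, which none of the 3 exceeded, and 92 in replicate 2, which all 3 exceeded. Another stood at 58.8 kb downstream, with 54 and 85.

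Grem1 had 4 shared distal peaks, 2 in its own intron and 2 in introns of the neighbouring gene Fmn1. Fmn1 encodes a formin and is known from limb studies in mouse to hold regulatory sequence of Grem1. The strongest of the 4 was an Fmn1 site, 110 kb downstream of the Grem1 start (chr2:113648296-113648445), with strengths of 41 and 76. The other Fmn1 site, at 103 kb, had 19 and 30. The Grem1 intron sites at 1.53 and 2.48 kb had 20 and 51, and 18 and 38.

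Bmpr1a had 2 shared distal peaks, both in its introns, at 6.98 kb (chr14:34495636-34495785), with strengths of 31 and 78, and at 1.47 kb from its downstream start, with 26 and 62. Bmpr1b had 28, of which 17 were inside Bmpr1b, 8 inside Unc5c, which encodes a netrin receptor, 2 inside Pdlim5 and 1 outside protein-coding genes. The strongest was in a Bmpr1b intron (chr3:142064016-142064165), with 52 and 104, and lay 81.8 kb upstream of the nearest start, an internal one. The next was in an Unc5c intron 120 kb downstream (chr3:141811516-141811665), with 55 and 98, and the third in a Bmpr1b intron at 7.83 kb, with 36 and 86. In 2 places a pair of overlapping replicate 1 peaks matched the same replicate 2 peak, so the 108 shared distal peaks correspond to 106 in replicate 2.

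As a group the 108 peaks resembled other shared distal peaks in their split over introns, exons and other sequence and in GC content. They did not in distance from the start or in the side of it. Introns held 45 (41.7%), sequence outside protein-coding genes 60 (55.6%) and exons 3 (2.78%), against 42.7%, 52.7% and 4.63% over all genes. Of the 60, 4 were inside long non-coding RNA genes. Their median GC content was 48.0% against 50% over all genes. They lay farther out, with a median distance of 72.8 kb against 30.7 kb, and 40 were beyond 100 kb, of which 14 belonged to Bmp2, 13 to Bmp7 and 10 to Bmpr1b. Downstream of the nearest start lay 83 (76.9%), against 56.1% over all genes, and Bmp7 with 23, Bmpr1b with 21 and Bmp2 with 19 supplied most of these. Median strength was 25 in replicate 1 and 62.5 in replicate 2, against 28 and 63.

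The libraries ranked these sites alike. Across the 108 peaks Pearson's r between the strengths was 0.864 and Spearman's rho 0.831, and across all 62952 shared distal peaks they were 0.844 and 0.838. The points are peaks of the same pair of libraries, with neighbouring peaks among them, and are not independent. Only peaks called in both libraries enter, so distal peaks without a match have no part in these values.

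**Figure D4:**
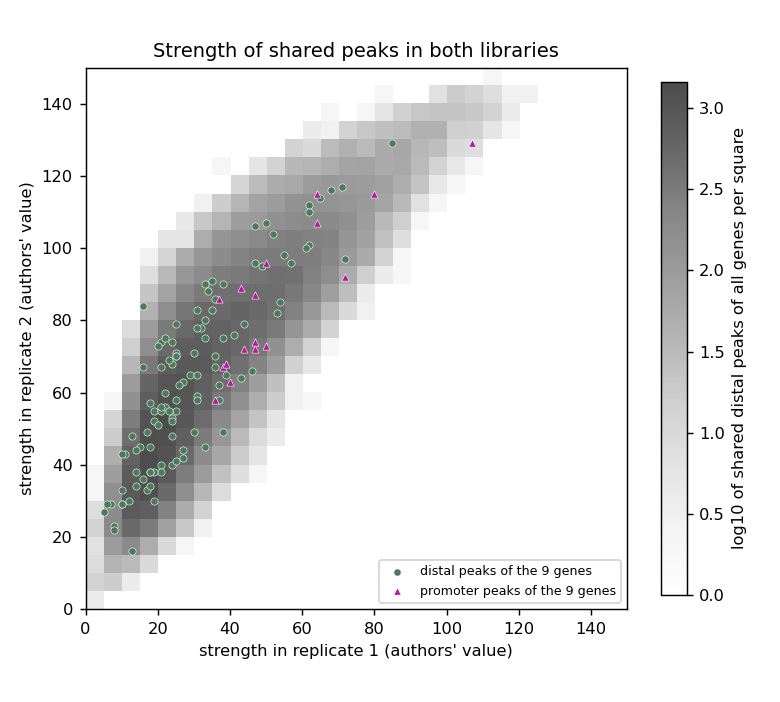
Strength in replicate 1 (x axis) and replicate 2 (y axis), both the authors' values, of shared distal peaks (green circles) and shared promoter peaks (purple triangles) of the 9 genes, over the density of shared distal peaks of all genes (grey squares, log10 scale). The 108 distal peaks follow the same band as the peaks of all genes, and the point at 85 and 129 is the intronic site of Bmp4.

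Motifs in the 108 distal peaks were about as frequent as in all shared distal peaks. The CTCF letters were in 15 (13.9%) against 15.8%, at Bmp2, Bmp4, Bmp5, Bmp7, Nog and Bmpr1b. The E-box was in 20 (18.5%) against 18.4%, at 6 of the genes. GGCGCC was in 5 (4.63%) against 4.68%, and the AP-2 motif in 5 (4.63%) against 6.26%. The homeodomain letters and the AP-1 motif were each in 2 (1.85%), against 3.74% and 4.40%, the TEAD motif was in 4 (3.70%) against 3.32%, and GTCTAGAC was in none, against 0.156%.

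In replicate 1 the share of distal peaks matched in the other library was lowest at Bmp2 and Bmp5. Chrd is left aside, since it had 1 distal peak, which had no match. Of 456 distal peaks of replicate 1, 108 had a match (23.7%, exact Clopper-Pearson 95% interval 19.9 to 27.9, counting error only), against 36.3% over all genes. Of 332 distal peaks of replicate 2, 106 had a match (31.9%, interval 26.9 to 37.2), against 34.2% over all genes. The intervals treat peaks as independent, which neighbouring peaks are not, so they are no test against the share over all genes. In replicate 1 the matched share was 59.1% for Bmp7, 53.3% for Nog, 50% for Bmp4 and 44.4% for Grem1. It was 37.3% for Bmpr1b and 33.3% for Bmpr1a, but 12.5% for Bmp5 (interval 4.19 to 26.8) and 10.8% for Bmp2 (interval 7.24 to 15.3). In replicate 2 the share ran from 12.5% for Bmpr1a (2 of 16) to 38.5% for Bmp5 (5 of 13). Bmp2 and Bmp5 were then left out, a choice made after their low values were seen. Among the other 7 genes, 76 of 166 distal peaks of replicate 1 had a match (45.8%). In replicate 2 it was 74 of 229 (32.3%). No poorly matched genes were left out of the 36.3% and 34.2% over all genes, so these shares are not like for like.

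Bmp2 had 250 distal peaks in replicate 1 and 90 in replicate 2, although more genes had an excess in replicate 2 (10490) than in replicate 1 (4768). The difference of 160 was the sixth largest excess of replicate 1 among 17544 genes with a distal peak. The extra peaks stood in patches. Counted in windows of 10 kb, with a window of at least 10 peaks called dense (a measure chosen after these patches were seen), 165 of the 250 were in dense windows, with a median strength of 4. In these same windows replicate 2 had 24 distal peaks of Bmp2 and no dense window. Outside them the counts were 85 in replicate 1 and 66 in replicate 2. By the median distance of their peaks, the dense windows stood at 2.79 and 13.4 kb, 55.9 to 84.4 kb and 353 to 393 kb downstream of the start. The window at 2.79 kb, which holds the start itself, was not a weak patch. Its 19 replicate 1 peaks, promoter peaks included, had a median strength of 19, and 6 were shared. Replicate 2 had 9 peaks there, with a median strength of 66.

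**Figure D5:**
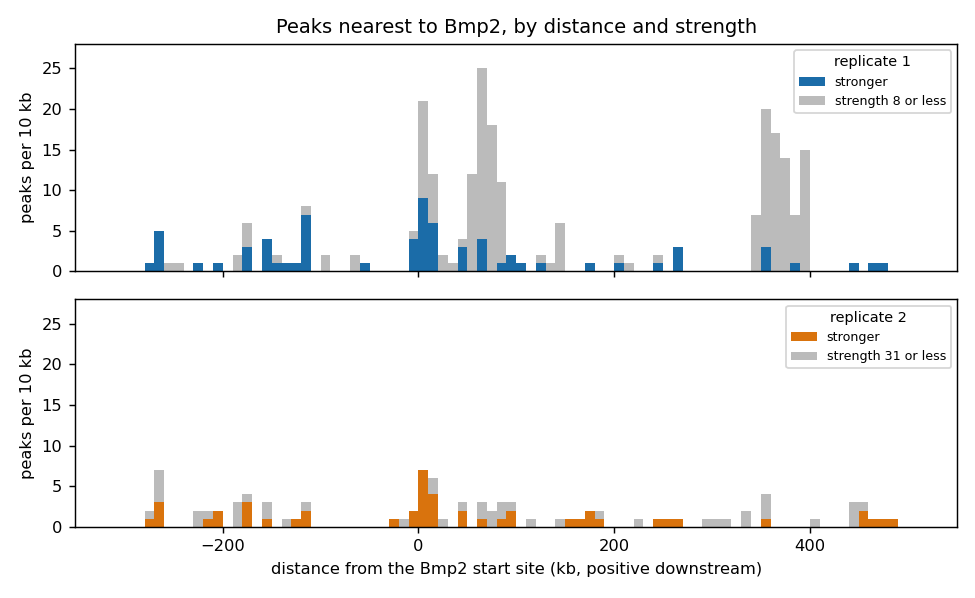
Number of Bmp2 peaks per 10 kb (y axis) by distance from the start (x axis, kb, positive downstream) in replicate 1 (top) and replicate 2 (bottom), with the weakest 30% of all peaks of each library in grey (strength of at most 8 in replicate 1 and 31 in replicate 2). Replicate 1 reaches 25 peaks per 10 kb in grey patches, while replicate 2 does not exceed 7.

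The same kind of patch was seen at Bmp5, where 22 of 40 replicate 1 distal peaks stood in 1 window about 20.4 kb upstream, with a median strength of 4, and replicate 2 had none in that window. Bmpr1b had 17 replicate 1 distal peaks in a window 5.89 kb from its internal start, with a median strength of 5, where replicate 2 had 1 peak. Bmp4 differed: its dense window over the gene body was dense in both libraries, with 12 and 13 peaks and median strengths of 32 and 69 over them. Over the 9 genes 46.5% of the distal peaks of replicate 1 and 2.71% of those of replicate 2 were in dense windows, against 27.2% and 4.43% over all genes. Genome-wide, the replicate 1 distal peaks in dense windows had a median strength of 5 and 10.9% had a match, against 45.8% of those outside. The libraries also differed in part in the sequencing instruments used, per the labels, and the part of this in the patches was not tested.

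Hotspots followed the peaks. The 9 genes had 371 hotspots per library on average (SD 70.7, n = 2), of which 143 of 421 in replicate 1 (34%) and 128 of 321 in replicate 2 (39.9%) had a match in the other library, against 47.0% and 41.4% over all hotspots. Bmp2 alone had 228 in replicate 1 and 86 in replicate 2. Of its replicate 1 hotspots, 65 were at the −log10 q ceiling, 49 of these in the dense windows, and 11 of the 65 had a match. In replicate 2, 17 were at the ceiling and 15 had a match. Many hotspots in the replicate 1 dense windows were thus at the ceiling, while the distal peaks there had a median strength of 4.

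The other genes of the pathway were counted from a list of 43: 35 had a shared promoter peak (81.4%), against 61.1% of all genes. The count was 7 of 10 for the other ligands, 10 of 15 for antagonists and modulators, 5 of 5 for receptors, 7 of 7 for the Smad genes with the ubiquitin ligase Smurf1, and 6 of 6 for the Id and Msx target genes. Promoter strength differed between these roles. Above the median of all genes in replicate 1 were 1 of 10 ligands, 2 of 15 antagonists and modulators and 3 of 5 receptors, but 6 of 7 Smad genes and 5 of 6 targets. In replicate 2 the counts were 0, 3, 3, 6 and 6.

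The 8 pathway genes without a shared promoter peak were the ligands Bmp10, Bmp15 and Gdf2 and the antagonists Chrdl1, Sost, Sostdc1, Cer1 and Dand5. Bmp10, Gdf2 and Dand5 had no promoter peak in either library. Bmp10 and Gdf2 are known as ligands of the heart and liver, and Dand5 as an antagonist in left-right patterning. Sostdc1, an antagonist known from tooth development, had 5 promoter peaks in replicate 1 and 6 in replicate 2, none of them shared. Bmp15, Chrdl1, Sost and Cer1 had promoter peaks in replicate 2 only, with strengths of at most 53.

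The genes of the list with most shared distal peaks were mainly targets and inhibitory Smads: Msx2 had 36, Smad7 35, Smad6 29 and Id2 26, followed by the ligand Gdf6 and the target Msx1 with 22 each. Msx1 and Msx2 are homeobox genes of the facial mesenchyme, and Smad6 and Smad7 damp the signal. Against their predictions these were 8.22 for Msx2, 8.20 for Smad7, 4.33 for Smad6, 17.5 for Id2, 14.7 for Gdf6 and 3.65 for Msx1. Over the list 31 of 43 genes exceeded their prediction, with 356 shared distal peaks in all where 230 were predicted. The 6 targets had 122 where 47.5 were predicted. The 5 receptors had 20 where 52.7 were predicted, most of the latter at Acvr2a, with 10 against 46.7. Of the 5 receptors 4 exceeded their predictions, so the shortfall was that of Acvr2a alone.

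For each of the 9 genes the most similar gene outside them was found over 4 measures: the distal peaks per library (log2 of 1 plus the count) and the within-library rank of the strongest promoter peak, each as a z score over all genes. Bmp2 was nearest to Robo2, at a distance of 0.0690, which had 235 and 93 distal peaks where Bmp2 had 250 and 90. Bmp4 was nearest to Grb14 (0.0796), Bmp5 to Gata4 (0.156), Bmp7 to Tgfbr2 (0.0536) and Nog to Sfswap (0.0800). Grem1 was nearest to Rfx8 (0.0958), Chrd to Slc35a5 (0.0292), Bmpr1a to Nudt4 (0.0135) and Bmpr1b to Hmga2 (0.0652). Gata4 had 42 and 13 distal peaks where Bmp5 had 40 and 13. Since genes were chosen by these counts, the closeness of Robo2 to Bmp2 and of Gata4 to Bmp5 follows from the choice. The likeness is one of counts and ranks in 2 libraries.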

How the data were processed

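DNase-seq peaks and hotspots of 2 libraries of 1 group were used on mm10, called per library and not pooled, per the labels. The aligner and caller were not given in the sources used here, and without read totals depth is unknown. The peak value deposited by the authors is a whole-number score, called strength. The hotspot value deposited by the authors is a −log10 q. Peaks on chromosomes 1 to 19 and X were assigned to the nearest of 41135 protein-coding starts (GENCODE M21 basic annotation). The 9 genes, the pathway, marker and motif lists were chosen with earlier results of these data known. Named were all 9 genes, the 3 best-ranked shared distal peaks of each, its best shared promoter peak, pathway genes without a shared promoter peak and the 5 with most shared distal peaks, with ties. No test was run. Overlap and distance code was tested on simulated data. Alternatives changed the overlap, the promoter window, the peak set, the starts and the library. Python 3.11.15, numpy 2.4.6, pandas 2.3.3, scipy 1.17.1 and pysam 0.24.0 were used.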

Additional observations from a re-analysis of the deposited data

How the results depend on the processing

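With an overlap of 90% of the peak, 5 of the 9 genes had a shared promoter peak, against 8, and 7 to 9 under the other alternatives. The 108 shared distal peaks became 32 with 90% overlap, 30 among the 50000 strongest peaks of each library, 68 within 100 kb and 41 with the nearest start of any gene. Using 1 library alone, where no match is asked, gave 332 without replicate 1 and 456 without replicate 2. The remaining alternatives gave 98 to 147. The matched share of replicate 1 distal peaks, 23.7%, became 32.2% with 1 bp, 7.02% with 90% overlap and 68.2% among the 50000 strongest. It was 31.9% taken from replicate 2, and 45.8% without the weakest 30% of peaks, which was chosen after seeing the data, as was the comprehensive annotation. It cannot be had from 1 library. Hotspots at the ceiling only numbered 105.5 per library, against 371, and 321 to 421 without a replicate. The pathway count of 35 ran from 33 to 40. For single genes, 49 of 117 recomputed distal counts, 26 of 99 promoter counts and 2 of 36 promoter strengths moved. The cause was not tested where the setting itself does not fix it. No paired analysis was possible because there is 1 group. Unknown depth limits what an absent peak shows.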
